A study of Arabidopsis thaliana with 13 samples.

Results

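The seeds described here were 48 of the 96 small *Arabidopsis thaliana* seeds that were sequenced one by one after recovery from secondary dormancy induction, out of 384 single seeds in the whole experiment. They were selected on a measured value. Each seed was given a score, the share of its counts on genes that fell on 10 genes for proteins of the large subunit of the cytosolic ribosome. In each of the 3 libraries of 32 small seeds, the 8 seeds of highest score were taken as the advanced side and the 8 of lowest score as the lagging side, after 1 seed with fewer than 20000 counts was left out. The words advanced and lagging stand only for this rank, because the labels record no germination for a sequenced seed. The 47 seeds between the sides are called middle seeds.

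All of these seeds were of the accession Col-0, after-ripened and stored dry for at least 6 months, and had been preselected as small. They lay on wet paper at 30 °C in the dark for 7 days, which induces secondary dormancy. They were then moved to constant light at a lower temperature for 24 h (the condition 7d + 24h). Advanced and lagging seeds shared the genotype, the size class, the treatment and the library, and each side held 24 seeds, 8 in each library. Large seeds of the same condition were compared with them, again with 24 seeds on each side by the same rule, and seeds harvested after 3 days of induction without recovery are mentioned once. The labels do not tie the libraries to separate plants or cultures, so the p-values below reach no further than the spread between 3 libraries. Most of that spread is shared across genes by the fit and is not a gene's own. Each library was made from whole seeds, and fewer cells of a type in a seed cannot be told apart from less RNA per cell.

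A dry seed keeps mRNA from its maturation, including messages for storage proteins, oil body proteins and late embryogenesis abundant (LEA) proteins, which protect cells during drying. Upon imbibition a seed that goes on to germinate turns to the production of ribosomes and proteins, loosens the walls of the embryo and of the surrounding endosperm, and loses the maturation messages. A dormant seed stops short of these steps under the control of abscisic acid (ABA), gibberellin and regulators such as *DOG1*. Ribosomal protein genes of plants commonly carry the telo box and site II elements near their start, whereas maturation genes often carry RY elements and ABA-responsive elements (ABREs).

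The starts of 5 genes on which the results below turn are shown to make these elements visible. *RPL6A* belongs to the score, *RPS6A* encodes a protein of the small subunit, *EXPA2* an expansin, *EM6* an LEA protein and *CRA1* a 12S storage globulin. Each run holds 250 bases before and 50 bases after the annotated start, 300 in all, 5′ to 3′ in the direction of the gene, read from the RefSeq TAIR10.1 genome. They lie at chr1:6378531-6378830 (*RPL6A*, minus strand), chr4:15347755-15348054 (*RPS6A*, minus), chr5:1568444-1568743 (*EXPA2*, plus), chr2:16780319-16780618 (*EM6*, minus) and chr5:17758287-17758586 (*CRA1*, minus). Capitals mark telo box and site II elements in *RPL6A* and *RPS6A*, site II and RY elements in *EXPA2*, ABRE cores and the G-box in *EM6*, and RY elements in *CRA1*.
RPL6A: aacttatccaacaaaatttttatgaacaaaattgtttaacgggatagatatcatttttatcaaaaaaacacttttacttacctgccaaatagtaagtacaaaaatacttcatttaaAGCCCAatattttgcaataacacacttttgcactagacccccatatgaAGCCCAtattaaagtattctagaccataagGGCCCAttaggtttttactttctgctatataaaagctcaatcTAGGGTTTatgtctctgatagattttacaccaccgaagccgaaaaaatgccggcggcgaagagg
RPS6A: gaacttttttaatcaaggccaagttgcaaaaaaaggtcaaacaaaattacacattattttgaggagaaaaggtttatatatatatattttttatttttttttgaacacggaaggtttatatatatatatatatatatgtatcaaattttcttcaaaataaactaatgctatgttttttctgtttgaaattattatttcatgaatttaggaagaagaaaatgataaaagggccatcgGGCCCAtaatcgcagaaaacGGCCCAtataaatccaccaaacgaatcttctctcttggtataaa
EXPA2: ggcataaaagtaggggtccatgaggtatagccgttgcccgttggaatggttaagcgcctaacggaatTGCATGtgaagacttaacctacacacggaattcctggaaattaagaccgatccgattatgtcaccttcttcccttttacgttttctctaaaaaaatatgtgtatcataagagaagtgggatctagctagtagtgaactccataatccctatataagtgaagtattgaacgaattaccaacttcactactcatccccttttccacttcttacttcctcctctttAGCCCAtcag
EM6: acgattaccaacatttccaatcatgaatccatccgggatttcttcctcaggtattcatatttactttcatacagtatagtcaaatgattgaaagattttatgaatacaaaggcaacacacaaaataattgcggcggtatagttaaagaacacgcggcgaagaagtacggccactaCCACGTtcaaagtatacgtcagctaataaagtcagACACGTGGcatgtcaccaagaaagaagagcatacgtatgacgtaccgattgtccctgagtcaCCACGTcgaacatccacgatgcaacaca
CRA1: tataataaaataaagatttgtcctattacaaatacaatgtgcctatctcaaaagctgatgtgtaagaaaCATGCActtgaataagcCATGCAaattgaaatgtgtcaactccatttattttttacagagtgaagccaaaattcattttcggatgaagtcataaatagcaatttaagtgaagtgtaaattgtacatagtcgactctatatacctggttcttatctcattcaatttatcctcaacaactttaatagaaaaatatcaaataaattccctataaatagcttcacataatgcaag
The motifs searched, on both strands, were the telo box (AAACCCTA), the site II element (TGGGCC or TGGGCT), the ABRE core (ACGTGG or ACGTGT), the G-box (CACGTG, which can overlap an ABRE core) and the RY element (CATGCA). *RPL6A* held 1 telo box and 3 site II elements, *RPS6A* held 2 site II elements, *EM6* held 4 ABRE cores and 1 G-box, and *CRA1* held 2 RY elements. *EXPA2* held 1 site II element and 1 RY element.

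Over all 33054 promoters of this length, 6.16% held a telo box, 20.65% a site II element, 17.85% an ABRE core, 7.05% a G-box and 10.16% an RY element. Among the 10 score genes, 5 held a telo box and all 10 a site II element. The other large subunit genes held a telo box in 61 of 163 promoters and a site II element in 107, and the small subunit genes in 46 and 67 of 101. Storage protein and oil body genes held an RY element in 16 of 18 promoters, an ABRE core in 11 and a telo box in 0. The 5 ABA-responsive late embryo genes, *EM6* among them, held a site II element in 4 promoters, an ABRE core in 4 and an RY element in 0. A match is a string of letters, and binding was not measured.

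Scores of the 96 small seeds ran from 0.463% to 1.85% of the counts on genes, with a median of 0.627%. In library 1 the advanced seeds had scores of 0.743% to 1.76% and the lagging seeds 0.532% to 0.580%, with the highest middle seed at 0.679%. Advanced seeds of library 2 ran from 1.26% to 1.85% and lagging seeds from 0.539% to 0.620%, and the highest middle seed reached 1.13%. Library 3 had advanced seeds of 0.720% to 1.68% and lagging seeds of 0.463% to 0.522%, with middle seeds of 0.539% to 0.708%. Lagging scores thus ran into those of the middle seeds without a gap, and the advanced side of library 2 alone had no seed under 1%. Without the seed left out for low counts, a score of at least 1% was found in 6, 12 and 3 small seeds of libraries 1, 2 and 3, of which 17 were on the advanced side and 4 were middle seeds of library 2. Small seeds after 3 days of induction without recovery had scores of 0.114% to 0.348%, below every small seed of 7d + 24h.

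**Figure D1:**
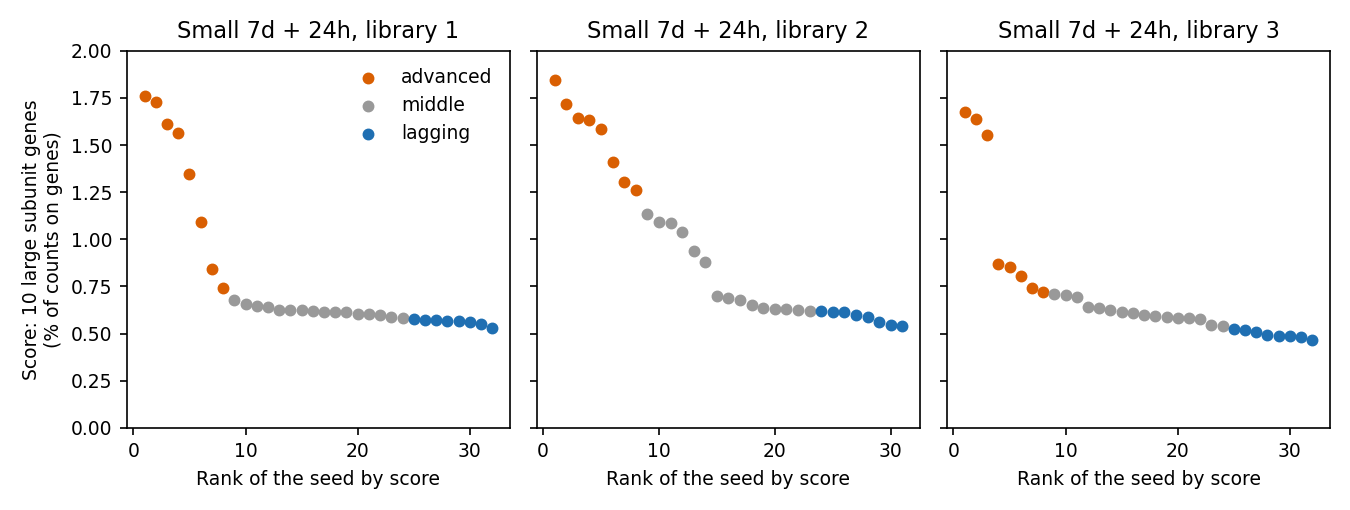
Score of each small seed of 7d + 24h (percent of counts on genes, y axis) against its rank in the library (x axis), 1 panel per library, with advanced, middle and lagging seeds in different colours. Advanced seeds of library 2 all lie at 1.26% or above, whereas libraries 1 and 3 hold advanced seeds down to 0.743% and 0.720%.

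The 10 score genes themselves chose the seeds and are given without a test. Values are in CPM, the usual counts scaled to a common library total, here of the counts summed over the 8 seeds of a side and with TMM factors, in the order of libraries 1, 2 and 3. *RPL6A* had 1149, 1374 and 973 CPM in advanced seeds and 331, 323 and 305 CPM in lagging seeds, the widest gap of the 10. *RPL5A*, whose protein binds 5S rRNA, averaged 1073 ± 101 CPM in advanced and 457 ± 43.0 CPM in lagging seeds (SD, n = 3 libraries). The narrowest gap was that of *RPL10aA*, with 756 ± 83.6 CPM in advanced and 556 ± 68.7 CPM in lagging seeds. In none of the 10 genes did the sides overlap. Middle seeds averaged 389 CPM for *RPL6A* and 554 CPM for *RPL5A*, much nearer to the lagging than to the advanced side.

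Sequencing depth and the reads outside genes moved with the score. The median counts on genes per seed were 190514, 274924 and 140378 in advanced seeds of libraries 1 to 3 and 120691, 120232 and 99614 in lagging seeds. Intergenic reads made up a median of 4.86%, 6.96% and 12.1% in advanced seeds and 9.79%, 11.4% and 14.7% in lagging seeds. A median of 14182, 15411 and 14097 genes had a count in advanced seeds, against 12643, 12883 and 12810 in lagging seeds. Across the seeds of a library the score correlated with the intergenic share at r = -0.92, -0.78 and -0.48 and with log10 counts at r = 0.59, 0.65 and 0.41, over 32, 31 and 32 seeds that share the library and its depth. When the sides were formed on the residual of the score on both measures, 3459 genes passed the threshold of the test below, against 3820 with the score itself.

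All genes other than the score genes were compared by edgeR's quasi-likelihood test on 6 summed libraries (883845 to 2150845 counts), with the library as a block. The test was two-sided, and an adjusted p (Benjamini-Hochberg) under 0.05 was taken as the threshold. Genes entered that averaged 1 count per seed or more over the 384 single seeds. Their share of the counts was also not to correlate with the intergenic share above r = 0.3 in any of the 4 groups of seeds. A gene scarce in lagging seeds could thus enter through high-score seeds alone, and lists of such genes carry this limit. The study describes a filter of this kind on read numbers, and shares were used here instead. Of the 6745 genes tested, 3820 (56.6%) differed between the sides, 1901 higher in advanced seeds (28.2%) and 1919 higher in lagging seeds (28.5%), and the median log2 fold change was -0.07. The counts of called genes below are to be read against these shares. Because the seeds were selected on the same counts, a call says only that a gene went with the score.

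The split between the directions differed between settings. Advanced libraries had TMM factors of 1.13 to 1.21 and lagging ones 0.845 to 0.859. Upper-quartile factors gave 1508 genes higher in advanced and 2481 higher in lagging seeds, DESeq2 gave 1283 and 569, seeds thinned to 20000 counts gave 644 and 221, and library totals without TMM factors, which moved the median of all genes up by 0.45, gave 2972 and 654. The intergenic filter had removed 5324 genes, among them most maturation genes. Without it, 6589 of 12068 genes (54.6%) differed, 3410 higher in advanced (28.3%) and 3179 higher in lagging seeds (26.3%), and the genes kept by the filter moved up by a median of 0.49 on the log2 scale. The filter removes only genes that rise with the intergenic share, which was higher in lagging seeds. Genes higher in lagging seeds were thus more open to removal, and the directions of list members kept by it carry this limit. Of the 5323 genes tested only without the filter, 573 were higher in advanced and 2733 higher in lagging seeds. Fold changes of these genes are given below from the unfiltered fit, named as such. That fit had 7.43 prior degrees of freedom, against 108.5 with the filter, and gave larger p-values at a similar effect. Both fits had 2 residual degrees of freedom, so their p-values rest mostly on a spread shared across genes.

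Ribosomal protein genes outside the score were higher in advanced seeds almost throughout, and they lie closest to what the seeds were selected on. Of 117 other large subunit genes tested, 104 were higher and 3 lower, with a median log2 fold change of 1.01, against -0.07 over all genes. Of 78 small subunit genes, 74 were higher and 1 lower, with a median of 0.94. The whole small subunit list summed to 54930, 57960 and 47080 CPM in advanced seeds and 30350, 30060 and 26550 CPM in lagging seeds.

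*RPS6A*, whose protein is phosphorylated by S6 kinase downstream of TOR, had 1357, 1559 and 1049.8 CPM in advanced and 364, 327 and 343 CPM in lagging seeds (log2 fold change 1.93 ± 0.093 SE, adjusted p = 2.97e-37). Every advanced library lay above every lagging one, and the middle seeds averaged 459.9 CPM. *RPS8A* averaged 2495 ± 436 CPM in advanced and 912 ± 45.5 CPM in lagging seeds (SD, n = 3), and *RPS3aA* and *RPS2C* had log2 fold changes of 1.26 and 1.41. Among paralogs the size of the difference varied widely. The gene of a ubiquitin fused to S27a, *AT1G23410*, had 79.2, 70.5 and 41.0 CPM in advanced and 5.56, 4.56 and 2.68 CPM in lagging seeds, a log2 fold change of 3.87 ± 0.32, the largest of the small subunit list. *AT4G25890*, for an acidic stalk protein of the large subunit, followed with 2.78 ± 0.17 and *AT5G22440*, a paralog of RPL10a, with 2.24 ± 0.13. Reads of near-identical paralogs may be split between them by the counting, which leaves single members less certain than the list.

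The lists were sorted by product name, so a protein of an organelle or of assembly not named as such counts as cytosolic. The 4 genes of the subunit lists lower in advanced seeds did not pass the threshold without the intergenic filter. There 131 of 146 other large subunit genes were higher and 6 lower, and 80 of 85 small subunit genes were higher and 0 lower. *AT1G54217* of the L18ae family had 9.16 ± 3.64 CPM in advanced and 18.6 ± 1.34 CPM in lagging seeds (SD, n = 3). *AT1G07830* and *AT2G16930*, annotated as L29 and L27 family proteins, had log2 fold changes of -0.65 and -0.63. *AT5G06360*, an S8e family protein, had -0.30, a sign that turned with library totals and without the intergenic filter. Ribosomal proteins named as those of plastids or mitochondria were higher in 14 of 17 genes tested and lower in 0, with a median of 0.77. *PSRP3/1*, a plastid ribosomal protein, averaged 86.7 ± 28.7 CPM in advanced and 15.2 ± 4.21 CPM in lagging seeds (SD, n = 3).

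For factors that assemble ribosomes the direction depended on the setting. Of 18 genes tested, 8 were higher in advanced seeds and 4 lower, with a median of 0.05, but with library totals 11 were higher and 0 lower, and without the intergenic filter 12 of 21 were higher and 0 lower (median 0.58). *NHP2*, a core protein of box H/ACA particles that guide pseudouridylation of rRNA, had 489, 432 and 393 CPM in advanced and 143, 148 and 138 CPM in lagging seeds, a log2 fold change of 1.61 ± 0.12 (adjusted p = 8.80e-23). The 2 fibrillarin genes, which encode the rRNA methyltransferase of box C/D particles, parted. *FIB2* averaged 658 ± 69.6 CPM in advanced and 283 ± 34.7 CPM in lagging seeds, whereas *FIB1* averaged 703 ± 68.8 CPM and 969 ± 101 CPM (SD, n = 3). The log2 fold change of *FIB1* was -0.47, but -0.01 with library totals and 0.02 without the intergenic filter. *NUC1* (nucleolin) and *REIL2* (a cytosolic maturation factor of the large subunit) had log2 fold changes of -0.37 and -0.44, and both turned positive with library totals and without the filter. *NUG2*, a GTPase of large subunit assembly, had -0.53 ± 0.15. *NOP58-2* and *BRX1-1* were higher in advanced seeds, by 1.14 and 0.96.

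Translation factors were higher in 12 and lower in 4 of 18 genes tested, with a median of 0.64, and higher in 14 and lower in 0 with library totals. Minor genes of RACK1, a scaffold on the small subunit, led the list. *RACK1C* had 321, 313 and 287 CPM in advanced and 38.9, 52.4 and 37.5 CPM in lagging seeds, a log2 fold change of 2.84 ± 0.16 (adjusted p = 3.84e-31), and *RACK1B* had 2.35 ± 0.14. Their main paralog *RACK1A* had 0.51 ± 0.08, from 1085 ± 88.9 CPM in advanced and 760.2 ± 45.1 CPM in lagging seeds (SD, n = 3). *ELF5A-2* (eIF5A) averaged 1837 ± 189 CPM in advanced and 857 ± 55.8 CPM in lagging seeds (SD, n = 3), and *EIF4A2*, an RNA helicase of initiation, had 1.00 ± 0.13. *PAB2*, a poly(A) binding protein, was lower by the filtered fit at -0.50 and stood at -0.014 ± 0.17 in the unfiltered fit. The EF1B subunit genes *EF1Bgamma-1*, *EF1Bgamma-2* and *EF1Balpha-2* had -0.36, -0.20 and -0.27 and turned positive with library totals and without the filter.

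Genes for the loosening of cell walls had the highest median difference among the lists with more than 1 gene tested. Only 12 of the 24 list genes were tested, and those scarce in lagging seeds passed the filter on low counts through seeds rich in them. The median is therefore partly fixed by that entry. Expansins act on the contacts between cellulose and xyloglucan, and XTH enzymes cut and rejoin xyloglucan. Of 12 genes tested, 10 were higher in advanced seeds and 0 lower, with a median log2 fold change of 5.31. *EXPA2* had 1236, 1098 and 603 CPM in advanced and 20.0, 6.84 and 16.1 CPM in lagging seeds, a log2 fold change of 6.11 ± 0.16 (adjusted p = 2.02e-60). *EXPA9* had 432, 402 and 263 CPM in advanced and 8.90, 0 and 6.69 CPM in lagging seeds (6.15 ± 0.25). *XTH31* had 454, 372 and 182 CPM in advanced and 2.22, 1.14 and 4.01 CPM in lagging seeds (7.12 ± 0.28). The lagging libraries held 36, 13 and 6 counts of these 3 genes in all, so these folds are imprecise. In each of them library 3 was lowest among the advanced sides, though above every lagging library.

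*EXPA3*, *EXPA10*, *EXPA15*, *XTH5*, *XTH9*, *XTH16* and *XTH19* were higher as well, with log2 fold changes of 3.45 (*XTH5*) to 5.82 (*XTH19*). *EXPA4* had 11.2, 25.4 and 54.8 CPM in advanced and 46.7, 0 and 46.8 CPM in lagging seeds, overlapping values with no call. In the unfiltered fit 15 of 18 list genes were higher in advanced and 1 was lower, with a median of 5.52. *EXPA1* there averaged 815 ± 146 CPM in advanced and 15.5 ± 9.97 CPM in lagging seeds (6.27 ± 0.36, adjusted p = 8.34e-06), and *XTH4* held 295 counts in advanced and 2 in lagging seeds. The exception was *XTH25*, averaging 9.38 ± 7.47 CPM in advanced and 90.5 ± 35.8 CPM in lagging seeds (SD, n = 3; -2.89 ± 0.53). Wall genes outside this list were also named, from the study's first co-expressed group. *XYL1*, an α-xylosidase that trims xyloglucan, averaged 762 ± 26.7 CPM in advanced and 30.7 ± 12.3 CPM in lagging seeds (SD, n = 3; 4.66 ± 0.15), and *AGP9*, an arabinogalactan protein, had 4.39 ± 0.21.

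**Figure D2:**
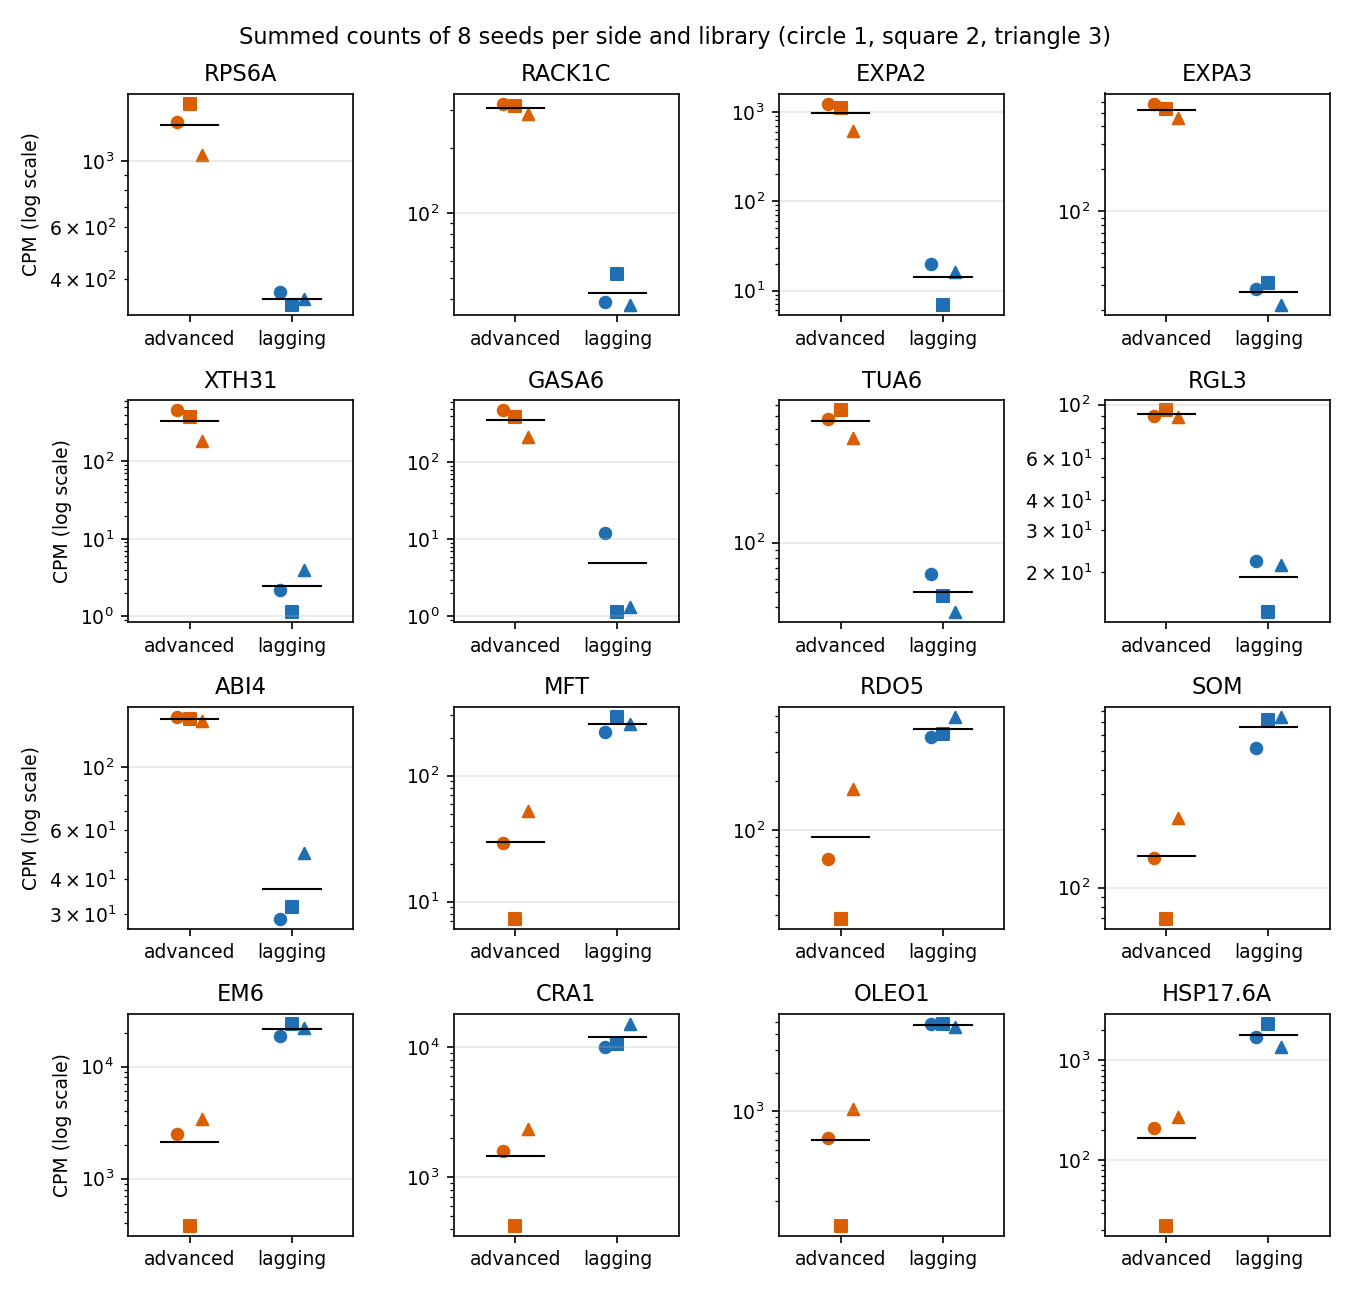
CPM on a log axis of 16 genes in the summed counts of 8 advanced (left) and 8 lagging (right) small seeds per library, with 1 symbol per library and a bar at the mean. In all 16 genes the sides do not overlap, and the advanced side of library 2 is the lowest for *MFT*, *RDO5*, *SOM*, *EM6*, *CRA1*, *OLEO1* and *HSP17.6A*.

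Tubulins and actins did not move alike. Of 16 genes tested, 12 were higher in advanced seeds and 1 lower, with a median of 0.93, also with *TUB5* at its bound. *TUA6* had 572, 647 and 440.0 CPM in advanced and 64.5, 46.7 and 37.5 CPM in lagging seeds (log2 fold change 3.48 ± 0.14), and *TUA4* had 143, 219 and 103 CPM and 4.45, 4.56 and 4.01 CPM (5.14 ± 0.28). *TUB5* held 185 counts in advanced and 0 in lagging seeds, at least 24.6-fold higher against a floor of 3 counts over the 3 lagging libraries, and *TUB1* held 170 and 2 counts. *TUB4* had a log2 fold change of only 0.59 ± 0.14, and *TUB9* missed the threshold at 0.12. With library totals 14 genes of the list were higher and 0 lower, and without the filter 14 of 17 were higher and 0 lower (median 1.63). None of the 3 actins was higher in the filtered fit, and the lower call of *ACT8* there was lost in both of these settings. *ACT2* and *ACT7* missed the threshold at -0.09 and -0.10, and *ACT8* averaged 60.2 ± 5.38 CPM in advanced and 93.8 ± 7.41 CPM in lagging seeds (SD, n = 3; -0.65 ± 0.16).

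Several genes of DNA replication were scarce in lagging seeds, though the whole replication and cell cycle list summed to 465, 541 and 459 CPM in advanced and 303, 329 and 371 CPM in lagging seeds. Of the 20 list genes 6 were tested, of which 5 were higher in advanced seeds and 0 lower, with a median of 2.51. The limit of entry given for the wall genes holds here too. *MCM7*, a subunit of the replicative helicase, had 31.9, 36.2 and 31.1 CPM in advanced and 2.22, 3.42 and 1.34 CPM in lagging seeds (3.76 ± 0.41, adjusted p = 5.16e-14). *PCNA1*, the sliding clamp of DNA polymerase, had 25.2, 38.5 and 19.2 CPM in advanced and 3.34, 2.28 and 1.34 CPM in lagging seeds (3.51 ± 0.42). *MCM4* and *TSO2*, a ribonucleotide reductase subunit, had 3.00 ± 0.46 and 2.01 ± 0.27. *MCM2*, *MCM3* and *MCM5* fell under the filter on low counts and held 125, 122 and 123 counts in advanced and 5, 2 and 3 in lagging seeds. The mitotic cyclin gene *CYCB1;1* stood at 3.53 CPM in advanced and 3.90 CPM in lagging seeds, too low to be fitted. *CDKA;1*, a kinase of both cell cycle transitions, was lower in advanced seeds in the unfiltered fit, at -0.63.

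Gibberellin genes moved in both directions. Of 10 tested, 5 were higher in advanced seeds and 2 lower, and in the unfiltered fit 9 of 20 were higher and 4 lower. *GA3OX2*, which makes the bioactive hormone, had 41.8, 53.1 and 21.1 CPM in advanced and 3.34, 0 and 1.34 CPM in lagging seeds (unfiltered fit, 5.05 ± 0.48, adjusted p = 6.39e-05), from 263 and 4 counts. Its paralog *GA3OX1* held only 3 counts in advanced and 6 in lagging seeds. Upstream, *GA2* (ent-kaurene synthase) averaged 5.20 ± 1.07 CPM in advanced and 15.5 ± 6.51 CPM in lagging seeds (SD, n = 3; -1.45 ± 0.40), and *GA20OX3* had an unfiltered log2 fold change of -2.02 ± 0.19. *GA2OX2*, which inactivates gibberellin, had -0.70 ± 0.30, a sign that turned when seeds were thinned to 20000 counts.

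The receptor gene *GID1A* was lower in advanced seeds in the unfiltered fit, with 34.6, 11.2 and 36.3 CPM in advanced and 148, 182 and 167 CPM in lagging seeds (-2.22 ± 0.31). Of the DELLA genes, which encode repressors of the response, 3 were higher. *RGL3* had 90.0, 94.7 and 89.2 CPM in advanced and 22.2, 13.7 and 21.4 CPM in lagging seeds (2.26 ± 0.22, adjusted p = 7.98e-17), and *RGA* and *GAI* had 1.42 ± 0.18 and 1.32 ± 0.17. *RGL2*, the DELLA best known in germination, had 166, 178 and 185 CPM in advanced and 125, 159.6 and 203 CPM in lagging seeds, which overlap (0.14 ± 0.14, adjusted p = 0.394), and was called only in the unfiltered fit (0.63). The gibberellin-induced genes of the GASA family named here differed widely. *GASA6* had 474, 386 and 211 CPM in advanced and 12.2, 1.14 and 1.34 CPM in lagging seeds (6.15 ± 0.25), and *GASA4* held 244 counts in advanced and 3 in lagging seeds.

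Of 20 dormancy regulators, 15 averaged 1 count per seed or more and 3 passed the intergenic filter, of which 0 were higher and 1 lower in the filtered fit (median -0.19). In the unfiltered fit 12 of 15 were lower in advanced seeds and 1 was higher, with a median log2 fold change of -2.04, against -0.02 over all genes. *DOG1* held 4 counts in advanced and 59 in lagging seeds, or 0.450, 0 and 1.98 CPM and 10.0, 19.4 and 44.2 CPM (-4.50 ± 0.55, adjusted p = 1.89e-04). The counts are few, and the lagging libraries differed widely among themselves. The study held *DOG1* in imbibed seeds to lie below what this single-seed method detects and did not assay it directly. The better measured *DOGL3*, a gene of the same family, had 59.4, 4.24 and 145 CPM in advanced and 436, 557 and 791 CPM in lagging seeds (-3.19 ± 0.64). *MFT*, whose protein inhibits or promotes germination by context, had 29.2, 7.32 and 52.2 CPM in advanced and 221, 291 and 258 CPM in lagging seeds (-2.86 ± 0.42). *RDO5*, a phosphatase-like protein needed for dormancy, had 66.6, 28.5 and 178 CPM in advanced and 374, 385 and 492 CPM in lagging seeds (-2.04 ± 0.34). *SOM*, a zinc finger repressor of light-dependent germination, had 142, 69.3 and 225 CPM in advanced and 515, 718 and 741 CPM in lagging seeds (-1.82 ± 0.29). *RVE2* and *PIF1* were lower as well, with -2.19 and -0.70. In these genes the advanced side of library 2, whose scores all exceeded 1%, was the lowest, and that of library 3 the highest, except *RVE2*, in which library 1 was lowest. The intergenic share was lower in advanced seeds (above). Of the 5324 genes that the filter removed, 1305 correlated above its limit in the small 7d + 24h seeds themselves. The part of intergenic reads in these differences was not tested.

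Genes of ABA signalling likewise divided at the filter. Among the 6 genes kept, 4 were higher in advanced seeds and 2 lower, whereas among 26 genes of the unfiltered fit 17 were lower and 5 higher, with a median of -1.03. The receptor gene *PYL4* had 105, 146 and 146 CPM in advanced and 28.9, 31.9 and 70.9 CPM in lagging seeds (1.65 ± 0.18, adjusted p = 9.93e-14). *ABI4*, a transcription factor that inhibits germination in response to ABA and sugar, was also higher, with 151, 149 and 147 CPM in advanced and 28.9, 31.9 and 49.5 CPM in lagging seeds (2.04 ± 0.18). Its partners in seed ABA responses went the other way in the unfiltered fit. *ABI3* had 149, 94.3 and 174 CPM in advanced and 387, 361 and 466 CPM in lagging seeds (-1.09 ± 0.18), and *ABI5* had 99.0, 98.6 and 105 CPM and 265, 283 and 312 CPM (-1.02 ± 0.16). The bZIP factors *EEL* and *ABF4* and the phosphatase genes *HAI2* and *AHG1* were lower, with log2 fold changes of -2.44, -2.32, -1.92 and -1.30. *SNRK2.3*, a kinase of the pathway, had -0.57 and *ABI2* -1.09 in the filtered fit, and neither passed the threshold without the filter.

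In the synthesis of ABA, *NCED9*, of the rate-limiting step, had 4.05, 0.770 and 5.95 CPM in advanced and 16.7, 22.8 and 20.1 CPM in lagging seeds (unfiltered fit, -2.11 ± 0.49), and *ABA1*, an epoxidase upstream of it, had -2.07 ± 0.20. *NCED6* held 6 counts in advanced and 0 in lagging seeds, too few for a fold. *AAO3*, of the last step, was lower in the filtered fit at -1.40 ± 0.44. *CYP707A2*, the main enzyme of ABA breakdown in imbibed seeds, averaged 17.3 ± 2.11 CPM in advanced and 15.1 ± 3.31 CPM in lagging seeds (SD, n = 3 libraries), overlapping values with no call by edgeR (0.20 ± 0.30, adjusted p = 0.589).

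Storage protein and oil body genes were lower in advanced seeds. Of 17 in the unfiltered fit, 15 were lower and 0 higher, with a median of -2.57, and of the 4 kept by the filter 3 were lower. Summed over the list they stood at 5382, 1463 and 7772 CPM in advanced seeds and 35300, 36950 and 43600 CPM in lagging seeds. *CRA1* had 1572, 422 and 2332 CPM in advanced and 10068, 10577 and 15110.0 CPM in lagging seeds (-2.84 ± 0.35, adjusted p = 2.05e-04). *CRC*, another globulin, had -2.80 ± 0.34, and *SESA5*, a 2S albumin, -2.98 ± 0.46. *OLEO1*, the main oil body protein, had 619, 127 and 1041 CPM in advanced and 4814, 4842 and 4554 CPM in lagging seeds (-2.91 ± 0.48). In all of these library 2 held the lowest advanced value. The albumin gene *SESA4*, kept by the filter, averaged 0.627 ± 0.163 CPM in advanced and 8.32 ± 1.81 CPM in lagging seeds (SD, n = 3; -3.58 ± 0.80), and *SESA2* had -1.15 ± 0.25.

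*EM6* was among the most abundant messages of the lagging seeds, with 2495, 381 and 3432 CPM in advanced and 18792, 24091 and 22207 CPM in lagging seeds (-3.29 ± 0.56, adjusted p = 9.23e-04). *EM1* had 578, 281 and 978 CPM in advanced and 4778, 3685 and 4158 CPM in lagging seeds (-2.47 ± 0.27), and the dehydrin *RAB18* had -3.00 ± 0.49. All 5 ABA-responsive late embryo genes were lower in advanced seeds in the unfiltered fit, with a median of -2.47, and none of the 5 passed the intergenic filter. The whole LEA family was less uniform, with 25 of 41 lower and 6 higher in the unfiltered fit and 6 of 15 lower and 5 higher in the filtered one. *AT3G15670* was lower (636, 754 and 699 CPM in advanced and 1746, 1453 and 1269 CPM in lagging seeds, -1.09 ± 0.083). *AT3G02480* was higher, with 315, 868 and 224 CPM in advanced and 116, 59.3 and 122 CPM in lagging seeds (2.04 ± 0.18), and the dehydrin *ERD14* had 2.02 ± 0.49.

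Heat shock genes moved in both directions. In the unfiltered fit 9 of 14 were lower in advanced seeds and 4 higher, with a median of -2.12, and of the 5 that passed the filter 4 were higher, with a median of 0.63. *HSP17.6A*, a small heat shock protein, had 209, 22.3 and 272 CPM in advanced and 1684, 2292 and 1362 CPM in lagging seeds (-3.32 ± 0.68), and *HSFA9*, a seed-specific heat shock factor, had -3.10 ± 0.43. *HSP101* and *HSP70B* had -2.69 and -3.14. Genes of several cytosolic and endoplasmic reticulum chaperones were higher. *HSP90.2* averaged 635 ± 67.9 CPM in advanced and 180.4 ± 7.26 CPM in lagging seeds (SD, n = 3; 1.81 ± 0.11), and *BIP2*, *BIP1* and *HSC70-1* had 1.41, 0.63 and 0.49. Of 10 aquaporins in the unfiltered fit, 4 were higher and 3 lower (median -0.32), and of 6 in the filtered fit 3 were higher and 1 lower (median 1.27). The seed vacuole aquaporin *TIP3;1* had 523, 96.3 and 892 CPM in advanced and 4086, 3709 and 3486 CPM in lagging seeds (unfiltered fit, -2.86 ± 0.51), whereas the plasma membrane aquaporin *PIP2;7* had 265, 300.3 and 174 CPM and 45.6, 36.5 and 46.8 CPM (2.52 ± 0.17).

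**Figure D3:**
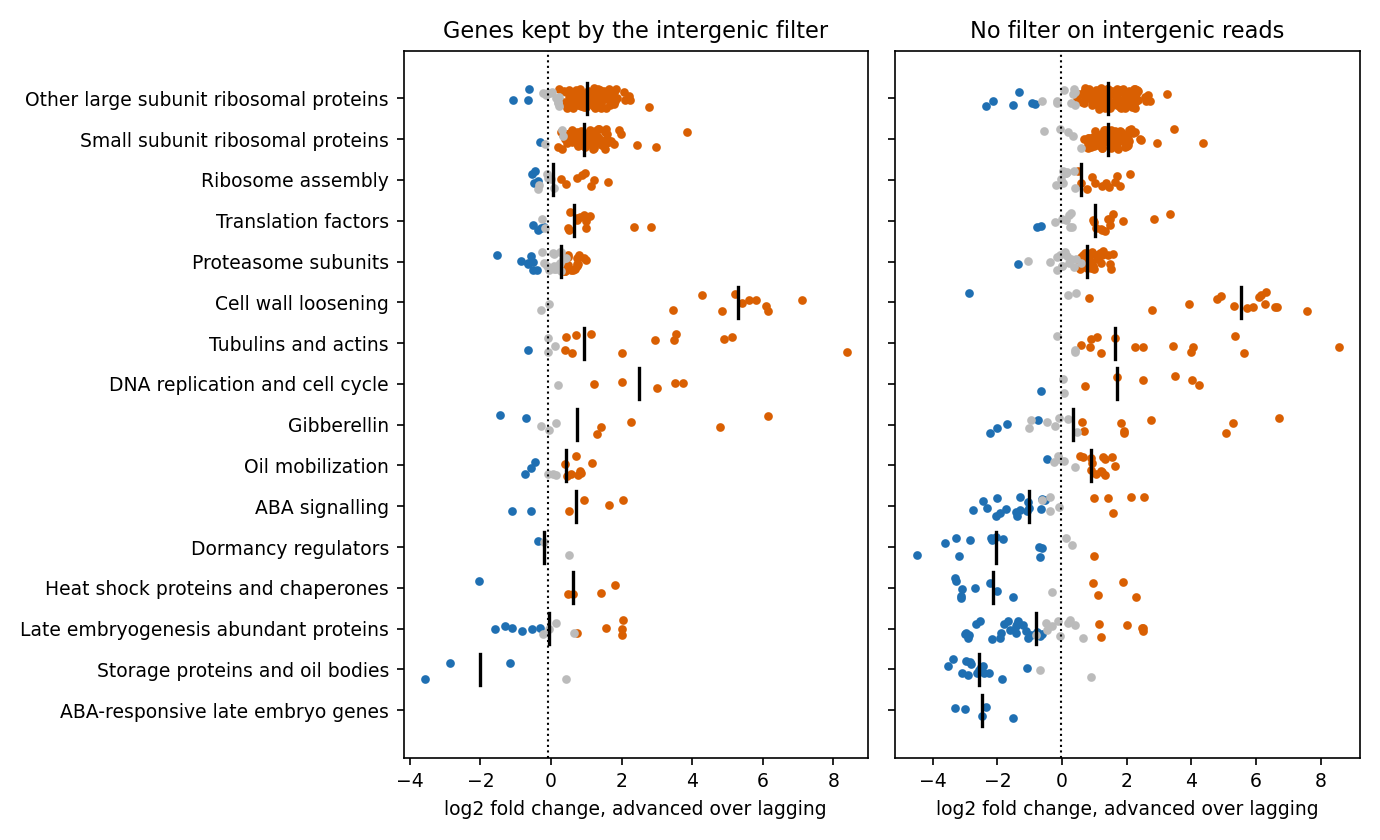
Log2 fold change of advanced over lagging small seeds for each gene tested in 16 lists, with the intergenic filter (left) and without it (right), where orange and blue points passed the threshold, higher in advanced and higher in lagging seeds, and grey points did not. Bars mark list medians and dotted lines the median of all genes, -0.07 and -0.02, and most dormancy, storage and late embryo genes appear only in the right panel.

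Among genes that turn stored oil into sugar, 8 of 14 tested were higher in advanced seeds and 3 lower, with a median of 0.43. With library totals 11 were higher and 0 lower, and without the filter 13 of 19 were higher and 1 lower (median 0.91). *MLS*, malate synthase of the glyoxylate cycle, had 2294, 2182 and 2380.4 CPM in advanced and 2590.2, 2420.0 and 2197 CPM in lagging seeds (-0.071 ± 0.063, adjusted p = 0.339), positive with library totals. *PCK1*, which starts gluconeogenesis from its products, had 1144, 1169 and 1327 CPM in advanced and 1119.9, 1041 and 1324 CPM in lagging seeds (0.068 ± 0.076, adjusted p = 0.458). The partner of *MLS*, *ICL* (isocitrate lyase), had 4259, 4293 and 4604 CPM in advanced and 6765, 6206 and 6571 CPM in lagging seeds and was lower in the filtered fit (-0.57 ± 0.047), but not in the unfiltered one (-0.087 ± 0.17). Enzymes of β-oxidation were modestly higher, with *ACX4* at 0.85 ± 0.14, *ACX3* at 0.84 and *MFP2* at 0.72, except *ACX1* at -0.74. The importer *PXA1* had -0.44, a sign that turned with library totals and without the filter.

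Nuclear genes of photosynthesis were mostly too low to be tested, with 5 of 46 in the filtered fit, of which 2 were higher and 1 lower. *RBCS1A*, a small subunit of Rubisco, had 292, 437 and 249.7 CPM in advanced and 133, 106 and 87.0 CPM in lagging seeds (1.56 ± 0.14), and *PETC* had -1.15 ± 0.26. *PSAD-2*, a photosystem I gene outside this list, was lower in advanced seeds by more than *PETC* and is given below. *LHCB1.1* held 1 count in advanced and 0 in lagging seeds after 24 h of light. Of the genes of the chloroplast genome, 7 of 10 tested were lower in advanced seeds and 0 higher, but with library totals edgeR called 0 in either direction (1 had an unadjusted p under 0.05), DESeq2 called 3 lower and 0 higher, and without the filter 4 of 48 were lower and 1 higher. Of those of the mitochondrial genome 7 of 8 were lower and 0 higher, against 4 lower with library totals and 7 of 17 lower without the filter. The whole mitochondrial list summed to 2487, 2649 and 4100 CPM in advanced and 4982, 4188 and 3664 CPM in lagging seeds, so library 3 went the other way. As a share of the counts, the chloroplast list was 0.519%, 0.654% and 0.816% in advanced and 0.664%, 0.725% and 0.668% in lagging seeds. Proteasome subunits were higher in 17 and lower in 8 of 41 genes, with a median of 0.27 and none beyond 0.99 (*RPT2b*) on the positive side. With library totals 29 were higher and 1 lower, and without the filter 32 of 47 were higher and 1 lower (median 0.76).

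The largest differences among called genes of the filtered fit, with at least 10 CPM and 1 direction in all 3 libraries, were found in messages almost absent from lagging seeds. *ARAB-1* (a GDSL lipase), *AT3G06145* (a RING finger protein) and *AT5G51560* (a receptor-like kinase) held 240, 194 and 170 counts in advanced seeds and 0 in lagging seeds, at least 31.9-fold, 25.8-fold and 22.6-fold higher. *ASPGB1*, an asparaginase, and *scpl48*, a serine carboxypeptidase-like protein, held 400 and 387 counts in advanced seeds and 1 each in lagging seeds. *BXL2*, a β-xylosidase of wall polysaccharides, had 223, 252 and 154 CPM in advanced and 3.34, 0 and 4.01 CPM in lagging seeds (6.43 ± 0.30). The subtilase *AT5G45650*, the thaumatin-like *ATLP-1*, *FMO GS-OX4*, of glucosinolate modification, and the extensin-like *ELP* completed the 12, with *TUB5* and *XTH31* named above. Their middle seeds averaged 1.08 CPM for *ARAB-1*, 15.9 CPM for *BXL2* and 3.35 CPM for *ELP*, much nearer to the lagging than to the advanced side.

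In the other direction the differences among genes kept by the filter were smaller, but the intergenic filter had left out many genes higher in lagging seeds. Of the genes tested only without it, 2733 were higher in lagging and 573 in advanced seeds, and these were not ranked. *TI1*, a trypsin inhibitor, had 2.25, 2.31 and 28.4 CPM in advanced and 152, 16.0 and 134 CPM in lagging seeds (-3.39 ± 0.27, adjusted p = 1.36e-21). *PDF1.4*, a defensin-like protein, had 11.2, 5.01 and 89.2 CPM in advanced and 371, 44.5 and 488 CPM in lagging seeds (-3.37 ± 0.20). For both genes the lagging side of library 2 lay below the advanced side of library 3, so that the sides overlap across libraries although each library alone had the lagging side higher. The other genes of the 12 included *SIS* (a RING ubiquitin ligase), *PSAD-2* (a subunit of photosystem I) and several uncharacterized or F-box proteins, with log2 fold changes of -3.23 (*AT5G05220*) to -2.37 (*PSAD-2*).

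Markers of both the endosperm and the embryo were among the genes higher in advanced seeds. Of 6 endosperm markers, 3 could be fitted, and they went in both directions, with *EXPA2* as above, *MAN7*, a mannanase, at 177, 164 and 94.5 CPM in advanced and 25.6, 30.8 and 30.8 CPM in lagging seeds (unfiltered fit, 2.79 ± 0.25), and *EPR1*, an extensin-like protein of the endosperm, at 37.8, 15.4 and 41.6 CPM and 95.6, 93.5 and 126 CPM (-1.32 ± 0.22). *NAC25* was at 0 on both sides, *WOX5*, of the root quiescent centre, was at 0 in lagging seeds, and *NAC1L* and *MAN6* stayed under 3 CPM. The summed endosperm list ran from 744 to 1454 CPM in advanced and from 135 to 181 CPM in lagging seeds, most of it *EXPA2* on the advanced side. Among 9 embryo markers, *PDF1* of the outer cell layer was higher, with 183, 301 and 151 CPM in advanced and 20.0, 29.6 and 44.2 CPM in lagging seeds (2.77 ± 0.19), while *ATML1* and *PDF2*, factors of the same layer, had 0.09 and -0.06 and no call. *SHR*, of the root ground tissue, held 89 counts in advanced and 0 in lagging seeds, at least 11.8-fold higher, and was not fitted. The summed embryo list ran from 324 to 458 CPM in advanced and from 160 to 210.1 CPM in lagging seeds. The part of tissue makeup in the other differences was not tested.

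Seen one by one, the advanced seeds differed widely among themselves. A limit of 1% on the score, chosen after the scores were seen, left 17 advanced seeds at or above and 7 below it (2 in library 1 and 5 in library 3). In CPM by the seed's own counts on genes, *EXPA2* had a median of 1169 CPM (642 to 2799) in the 17 and 13.7 (0 to 154) in the 7, and 6.08 (0 to 85.9) in the 24 lagging seeds. *EM6* had a median of 289 CPM (133 to 7725) in the 17 and 9579 (3041 to 13137) in the 7, against 18847 (12813 to 25713) in lagging seeds. *MFT* had medians of 4.64 CPM in the 17, 130 in the 7 and 214 in lagging seeds. The 7 seeds thus lay nearer to the middle seeds, which had medians of 10.9 CPM for *EXPA2* and 15495 for *EM6* in the 43 of them under 1%. Single seeds of the sides overlapped, with 4 of 24 advanced seeds at or below the highest lagging seed for *EXPA2* and 6 for *XTH31*, and 1 at or above the lowest lagging seed for *EM6* and 6 for *CRA1*.

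The 4 middle seeds at or above 1% had a median of 115 CPM for *EXPA2* (71.9 to 1102) and 3167 for *EM6* (2144 to 4604), between the 17 and the 7 advanced seeds for both genes. After thinning to 20000 counts, *GASA6* was found in 17 of the 17 and 2 of the 7 advanced seeds, 2 of these 4 and 0 of 24 lagging seeds. *PCNA1* and *MCM7* were found with at least 1 count in 19 of 24 advanced seeds each, against 6 and 5 of 24 lagging seeds. After thinning every seed to 20000 counts they were found in 7 and 10 advanced seeds and in 0 and 1 lagging seeds. *DOG1* was found in 3 of 24 advanced and 17 of 24 lagging seeds, and after thinning in 0 and 7, where a seed without a count may still express the gene. These values are descriptions, since the seeds had been ranked on the same counts.

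**Figure D4:**
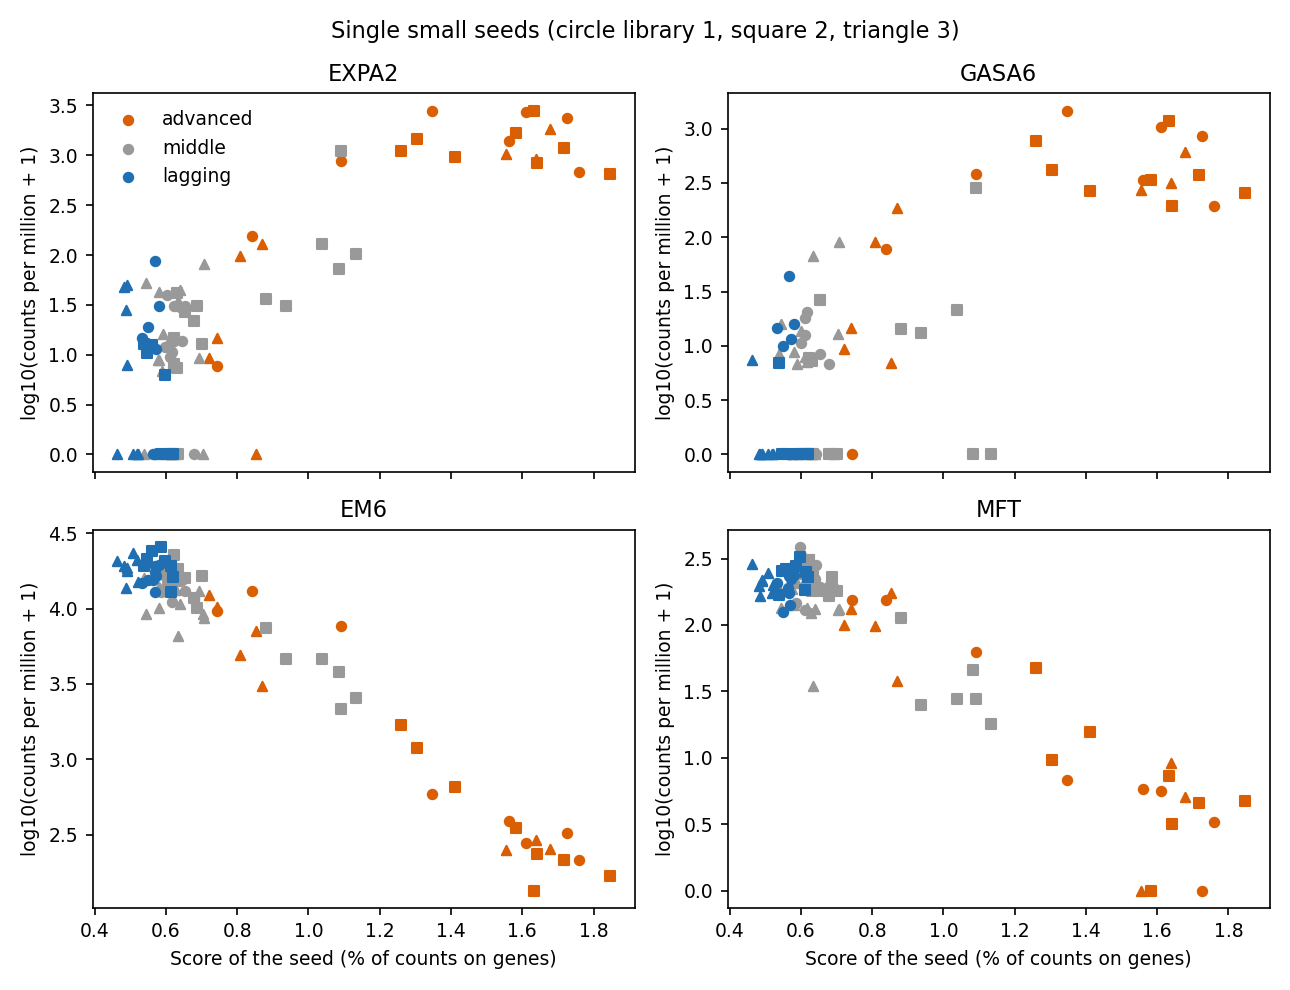
Level of *EXPA2*, *GASA6*, *EM6* and *MFT* in single small seeds (log10 of 1 plus the CPM, y axis) against the score (percent of counts on genes, x axis), with colours for advanced, middle and lagging seeds and symbols for the libraries. Advanced seeds under 1% lie among the middle seeds for all 4 genes, and most seeds above 1% have less *EM6* than those below, down to 133 CPM.

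The study formed 4 groups of co-expressed genes on these single seeds, so their directions here are not independent of the data. Of group 1, 396 of 427 genes tested were higher in advanced seeds and 2 lower, with a median of 1.11. Of group 2, 95 of 127 were lower and 3 higher, with a median of -0.66. Groups 3 and 4 had 17 of 35 and 11 of 18 genes lower and 3 and 1 higher, with medians of -0.27 and -0.51. With library totals, groups 1 to 4 had 420, 11, 13 and 3 genes higher and 1, 46, 1 and 2 lower. Group 2 took 1.71%, 1.70% and 1.69% of the counts in advanced and 1.80%, 1.72% and 1.69% in lagging seeds. In the unfiltered fit group 1 had 472 of 485 genes higher and 1 lower, whereas groups 2, 3 and 4 had 38, 0 and 2 lower and 8, 9 and 4 higher, and the medians were -0.21 in group 2, 0.19 in group 3 and -0.02 in group 4.

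Large seeds of the same condition were split by the same rule to compare the sizes. Large advanced seeds had lowest scores of 1.34%, 1.31% and 1.17% in their 3 libraries, so that none was under 1%, in contrast to the small seeds. In all, 29 of 96 large seeds had a score of at least 1%. A test of the interaction of side and size, over 12 summed libraries, called 28 of 6745 genes (0.415%), 15 with the more positive difference in small seeds and 13 in large seeds. Of these, 20 also differed between the sides in small seeds alone, and 6 were called in opposite directions in the sizes. Leaving out library 2 of both sizes gave 72 genes and leaving out library 3 gave 15, and 7 of the 28 passed with each library left out. Thinned to 20000 counts, 26 of the 28 kept their sign, and without the intergenic filter all 28 did, but the count of genes past the threshold of edgeR was 0 in both (306 and 1322 genes had an unadjusted p under 0.05, against 595 in the filtered fit).

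*AGP15*, an arabinogalactan protein, differed more in small seeds. It was among the 7, as was *DGR2* below, whereas *LP1* and *NSP1* had adjusted p = 0.283 and 0.719 in edgeR's test without library 3 and *MTO3* 0.0698 without library 1. In CPM by library totals without TMM factors it had 492, 384 and 356 in small advanced and 32.5, 51.9 and 61.1 in small lagging seeds, and 378, 445 and 453 in large advanced and 94.2, 141 and 196 in large lagging seeds (difference of the log2 fold changes 1.43 ± 0.23, adjusted p = 7.83e-04). *DGR2*, a wall-associated DUF642 protein, and *MTO3*, an S-adenosylmethionine synthetase, also had wider differences in small seeds, by 0.96 ± 0.18 and 0.90 ± 0.20. The opposite was found for *LP1*, a lipid transfer protein of the epidermis. It had 26.9, 40.9 and 41.2 in small advanced and 41.1, 1.96 and 31.7 in small lagging seeds, and 68.3, 33.7 and 63.1 in large advanced and 10.5, 0 and 0.803 in large lagging seeds (-3.73 ± 0.70, adjusted p = 0.00357). *NSP1*, a nitrile specifier protein of glucosinolate breakdown, behaved alike at -3.32 ± 0.75. In 1 small library each (library 1 for *LP1*, library 3 for *NSP1*) the lagging side was the higher one. The lists of ribosomal, wall loosening, dormancy and storage genes held *RPSAb* and *EXPA4* as their only members among the 28. LEA proteins were encoded by 4 of the 28 (*AT2G23120*, *AT2G44060*, *AT3G02480* and *AT3G15670*), each with the more positive difference in large seeds. The lower scores of the small advanced seeds in libraries 1 and 3 stand beside all of these differences, and their part was not tested.

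**Figure D5:**
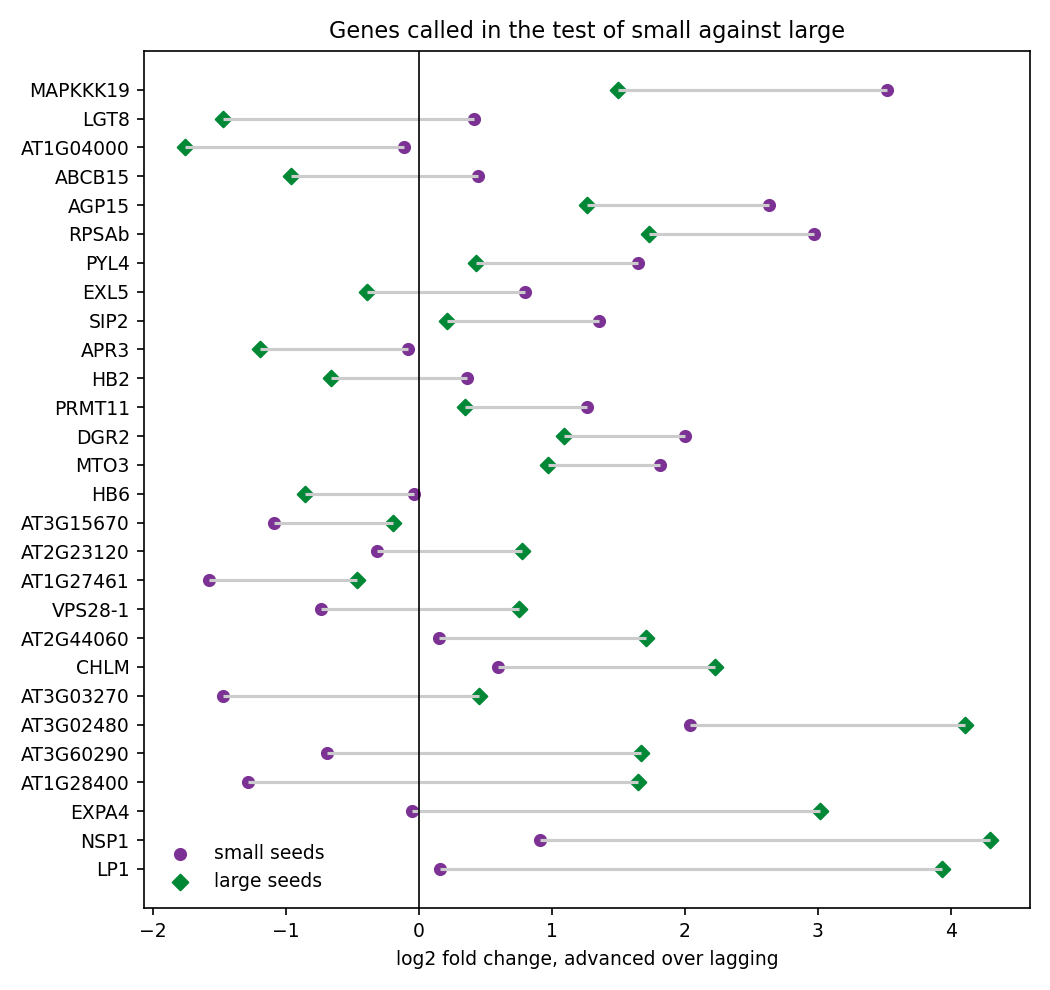
Log2 fold change of advanced over lagging seeds in small (circles) and large seeds (diamonds) for the 28 genes called in the test of small against large, with small above large in value for the upper 15 genes. *LP1* and *NSP1* lie near 0 to 1 in small seeds and near 4 in large seeds.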

How the data were processed

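RNA of single seeds was sequenced from its 3′ end with barcoded oligo(dT) primers, 32 seeds per library pooled before amplification. The values deposited by the authors are raw counts of reads per gene and seed, and the submitters' processing notes name STAR 2.7.8a, TAIR10, DESeq2 and Seurat. The primers carried molecular identifiers. The counter, the annotation and whether identifiers were used to collapse these counts are not given in the sources used here. Counts outside genes (intergenic, 10.2%) and ambiguous counts (0.277%) of the small 7d + 24h seeds stayed out of library sizes. Of 37336 genes, 37051 matched RefSeq. Dry-seed pools were not used here.

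Seeds were ranked on the score, and the counts of each side were summed per library. Fits used edgeR 4.0.16 in R 4.3.3 with TMM factors, a block for the library and 6 summed libraries (12 for the size comparison). The library pairs the sides, because advanced and lagging seeds of a number come from the same library. Score genes were left out of the calls and of the adjustment. The edgeR fit between the sides, DESeq2 and the size comparison were tested on simulated data, on filtered genes and with the same spread for every gene. Signs were right there and false calls few, but DESeq2 and the size comparison missed many true changes. A gene without a call in the size comparison may thus still differ. The number of true changes required to pass was lowered after a first result had been seen. The unfiltered fit was not simulated. DESeq2 1.42.0, other scalings, filters, scores and side sizes, thinning and the leaving out of each library were among 18 alternatives. Library totals without TMM factors, and the unfiltered values of named genes, were added after the data had been seen.

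Members, lists and tests were chosen with earlier results of these data known. Named genes were the 12 of largest change in each direction among called genes with at least 10 CPM and 1 direction in all 3 libraries, up to 4 called members of each list in each direction, and a fixed set of known seed genes. Other genes, among them most named from the unfiltered fit, *RACK1A*, *GAI*, *TUA6*, *TUB9*, *CYCB1;1*, *CDKA;1* and the genes named in the size comparison, were chosen after their values had been seen.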

Additional observations from a re-analysis of the deposited data

Results flagged for a closer look

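The 12 results below were singled out because the difference between advanced and lagging seeds itself differed between small and large seeds, in edgeR's test of the interaction (difference of the log2 fold changes, small minus large, two-sided, adjusted over 6745 genes). In 6 genes the sides were called in opposite directions in the sizes after TMM scaling, namely *AT1G28400* (-2.884, adjusted p = 0.00661), *EXL5* (1.246, 0.00214), *AT2G23120* (-1.019, 0.00997), *HB2* (1.082, 0.00389), *ABCB15* (1.477, 7.83e-04) and *VPS28-1* (-1.426, 0.0468). *AT1G28400* had the opposite sign under thinning to 20000 counts (0.40) and an adjusted p of 0.155 without library 3. *AT2G23120* had 189, 231 and 271 CPM by library totals in small advanced and 216, 198 and 206 in small lagging seeds, higher on average on the advanced side, and 268, 245 and 492 in large advanced and 152, 162 and 155 in large lagging seeds. By the same totals, small library 2 went against the call for *AT1G28400* (20.9 advanced, 9.79 lagging) and *VPS28-1* (31.6 and 22.5). Large library 1 did so for *HB2* (209.6 and 185.3). *EXL5* had 205.4, 241.1 and 140.5 in large advanced and 203.3, 207.8 and 194.3 in large lagging seeds, so its call there rests on the scaling. Among the 12 genes of this section, *PYL4*, *HB2*, *AT3G15670* and *ABCB15* passed the threshold with each library left out. The ABA receptor gene *PYL4* differed by 1.275 (adjusted p = 0.00546) and *RPSAb*, a protein of the small ribosomal subunit, by 1.304 (0.0434), both more positive in small seeds. *EXPA4* differed by -3.011 (0.0434), *AT2G44060* by -1.485 (0.04997), *AT3G02480* by -1.986 (0.00224) and *AT3G15670* by -0.8263 (0.00289).

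In *ABCB15*, a transporter gene, the small seeds had 128, 106 and 131 CPM by library totals on the advanced and 44.9, 77.4 and 73.5 on the lagging side, and the large seeds had 78.4, 110.5 and 60.2 on the advanced and 118, 127 and 136 on the lagging side. *AT3G02480*, an LEA protein gene, had 369, 1048 and 254 in small advanced and 99.3, 50.9 and 103 in small lagging seeds, and 1084, 1172 and 1365 in large advanced and 61.3, 45.2 and 66.6 in large lagging seeds. The lowest advanced scores were 0.743%, 1.26% and 0.720% in small seeds and 1.34%, 1.31% and 1.17% in large seeds, and the part of this gap was not tested.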

How the results depend on the processing

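Against 3820 calls between the sides of small seeds, DESeq2 gave 1852, a mean of 10 counts per seed or more 622 of 841 genes, no intergenic filter 6589 of 12068 and thinning to 20000 counts 865. The sides are paired by library, and the fit with no replicate block gave 3657 calls. Leaving out 1 library gave 2724 to 3632. Of the size comparison's 28 calls, a mean of 0.1 count per seed or more made 57, no filter 0 and thinning 0, and leaving out 1 library gave 15 to 72 (15 without library 3, 72 without library 2, 20 without library 1). Signs turned with library totals for *REIL2* (0.01311), *NUC1* (0.07977), *EF1Bgamma-1* (0.09678), *EF1Balpha-2* (0.1833), *EF1Bgamma-2* (0.2527), *CHO1* (0.08404), *PXA1* (0.01117), *AT5G06360* (0.1541) and *MLS* (0.3836). They turned without the intergenic filter for *FIB1* (0.01991), *REIL2* (0.0414), *NUC1* (0.1101), *EF1Bgamma-1* (0.1272), *EF1Balpha-2* (0.2132), *EF1Bgamma-2* (0.2821), *CHO1* (0.1134), *PXA1* (0.05055) and *AT5G06360* (0.1859), and under thinning for *GA2OX2* (1.411). The cause was not tested. Of 158 named genes tested, 77 lost their call with the sign kept under thinning, 31 with DESeq2, 31 without the filter and 28 with library totals. It was 6 without the block and 23, 15 and 10 without library 1, 2 and 3. Genes whose sign turned are not in these counts and come on top, 1 under thinning, 9 without the filter and 9 with library totals. Genes with under 10 CPM on a side rest on few counts.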
